A study of Mus musculus with 9 samples.

Results

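Pawr and Syt1 are neighbouring genes on mouse chromosome 10, and transposon insertions listed in or next to them were examined in medulloblastomas of Lazy Piggy mice. The deposited counts table lists one gene symbol for most insertion positions, and all lines with the symbol Pawr or Syt1 from the primary tumours of both arms were taken. This gave 13176 of 3961094 lines, 4641 for Pawr and 8535 for Syt1, and 2 of the 22353 symbols in the table. Both genes were chosen by their numbers of hit tumours and selected on the orientation of their insertions, as seen in these same tumours, so those values are descriptions.

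The tumours were sonic hedgehog (SHH) medulloblastomas, cerebellar tumours, of mice whose genotype is labelled only as Lazy Piggy. Genomic DNA of snap-frozen tumour was amplified from the Sleeping Beauty (SB) ends of the transposon in IR libraries, from the boundary of its SB and piggyBac (PB) parts in JX libraries, and from the PB ends in PB libraries. The arm TAM+ held 72 animals treated with tamoxifen, 53 with chromosome 10 listed as the local chromosome of the transposon (called the donor here) and 19 with chromosome 7. The arm TAM- held 47 untreated animals, 37 with donor 10 and 10 with donor 7. The sheet listed 4 to 249 days of tamoxifen for TAM+ animals, with a median of 49 days over the 71 animals with 1 listed value. The promoters that drive the transposases, the SHH-driving allele and the ages were not given in the sources used here, so what limits these animals as a model is stated only as far as the donor chromosome and the days. Animals are numbered here within their arm, and the numbers carry no other meaning. Nothing in the files separates tumour cells from other cells of the tissue, so a share of counts cannot be read as a share of tumour cells.

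Pawr encodes prostate apoptosis response 4, a leucine zipper protein known to bind Wt1 and atypical protein kinase C and to promote apoptosis. Syt1 encodes synaptotagmin 1, the calcium sensor of fast transmitter release on synaptic vesicles, in the neurons of the brain. A transposon that lands in a gene can interrupt its transcript, and SB elements are known to reinsert often on the chromosome that they leave. In the Lazy Piggy design an SB element carries a PB element inside it, so that the inner element can be moved again later, after the SB insertion has been made. An IR site thus marks an SB end, a JX site an insertion in which both parts still adjoin, and a PB site the end of the PB part.

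The counts per animal, both ends and repeat lanes summed, ranged from 295999 to 6337624 in IR, from 116836 to 2025775 in JX and from 1714 to 2853048 in PB. The median IR count was 3115243 in TAM+ and 3143569 in TAM-, whereas the median JX count was 441809 in TAM+ and 287429 in TAM-. A site was called in an animal at 10 or more counts and at 1% or more of the count of the animal's highest site, after positions within 10 bp had been merged. Where several animals called the same site, it counts for the one in which its share was highest. An animal with a called site assigned to a gene, inside it or next to it, is called hit. The counts have no molecular identifiers, so the intervals given below cover the sampling of animals and not the amplification.

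In mm9 coordinates, the positions inside Pawr, on the plus strand, ran from 107769558 to 107851402 of chromosome 10, a stretch of 81.8 kb. Positions listed downstream of its 3′ end reached 107934509. The positions inside Syt1, on the minus strand, ran from 107934743 to 108447762, a stretch of 513 kb, with positions listed upstream of its 5′ end as far as 108547902. The genes therefore point towards each other, and the stretch between the bodies was assigned to Pawr. Introns named below are those of the counts table.

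At least 1 IR count was listed in Syt1 in 72 of 72 TAM+ and 47 of 47 TAM- animals, and in Pawr in 70 TAM+ and 44 TAM- animals. Most of these counts were small. The share of an animal's IR counts listed for Pawr ranged from 0% to 4.27% with a median of 0.0342% in TAM+ animals, against 0% to 1.17% with a median of 0.0108% in TAM- animals. For Syt1 the share reached 9.21% with a median of 0.0723% in TAM+ animals, against 8.22% with a median of 0.0241% in TAM- animals. The ranges of both arms overlapped, and for Pawr TAM+ animals 62, 66 and 68 lay above all TAM- animals. These shares were not tested between arms.

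Called IR sites in or next to Pawr were found in 8 of 72 TAM+ animals (11.1%, exact 95% interval 4.92% to 20.7%) and in 1 of 47 TAM- animals (2.13%, 0.0539% to 11.3%). The two-sided Fisher's exact p was 0.0861, and 0.739 after Benjamini-Hochberg adjustment over the 40 genes hit in at least 3 animals. Syt1 was hit in 6 TAM+ animals (8.33%, 3.12% to 17.3%) and 4 TAM- animals (8.51%, 2.37% to 20.4%), with an exact p of 1 and an adjusted p of 1. Of the 40 genes, 0% passed an adjusted p of 0.05 between arms by Fisher's exact test, and 0 had an unadjusted p under 0.05. Neither gene was called different between arms in IR. The wide intervals leave room for differences in both directions.

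**Figure D1:**
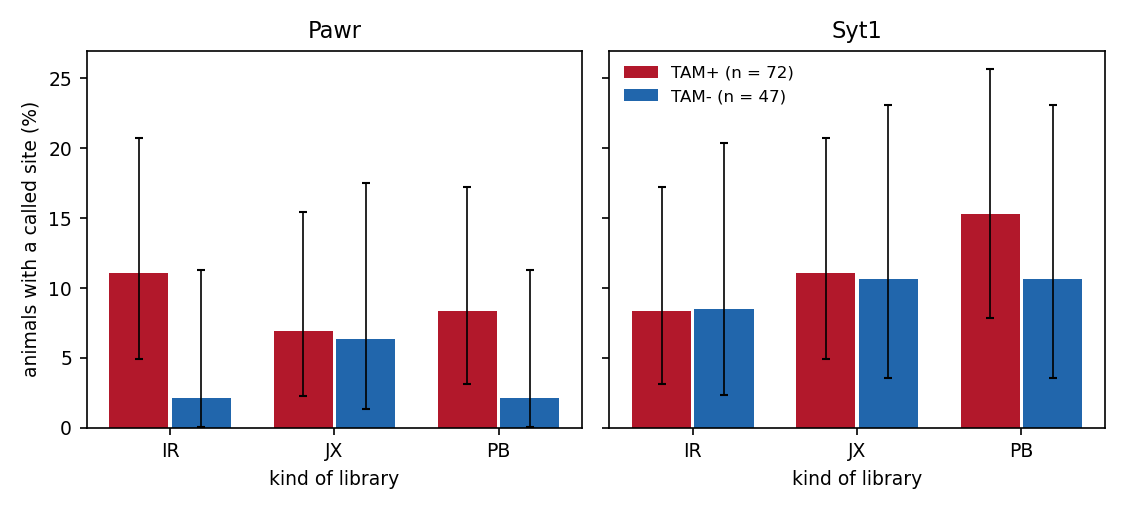
Percent of TAM+ (red, n = 72) and TAM- (blue, n = 47) animals with a called site in or next to Pawr (left panel) and Syt1 (right panel), by kind of library; bars are shares of animals and error bars exact 95% intervals. Pawr stood at 11.1% of TAM+ and 2.13% of TAM- animals in IR, and the intervals of both arms overlapped in all 6 pairs of bars.

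In the JX libraries Pawr was hit in 5 TAM+ and 3 TAM- animals, and Syt1 in 8 TAM+ and 5 TAM- animals, with an exact p of 1 for both. In the PB libraries Pawr was hit in 6 TAM+ and 1 TAM- animals (Fisher's exact p = 0.242, adjusted p = 0.846), and Syt1 in 11 TAM+ and 5 TAM- animals (Fisher's exact p = 0.587, adjusted p = 1). By this test 0% of 244 genes in JX and 0% of 55 genes in PB passed between arms, with 2 and 1 genes under an unadjusted p of 0.05. Pawr was thus hit in a larger share of TAM+ than TAM- animals in IR and PB, and in nearly equal shares in JX, with no difference past the test. Over the whole genome, called sites numbered 1540 in the 72 TAM+ and 771 in the 47 TAM- animals in IR, and 2005 and 905 in PB. These are more per TAM+ than per TAM- animal, and whether Pawr exceeded this was not tested. In IR the larger number per animal rests on TAM+ animals 46 and 3, with 334 and 130 called sites. The size of the Pawr differences depended on which sites were counted. In IR the TAM+ minus TAM- difference for Pawr was 8.98 percentage points as called, 3.43 inside the gene body alone (4 TAM+ and 1 TAM- animals) and 2.04 with a site call at 5% of the highest site (3 and 1). In PB it was 6.21 as called, 3.43 inside the body and 1.39 at the 5% call (1 and 0). Some called PB sites of Syt1 had most counts of their position in other animals. The animal credited held 4.86% of the counts at 107972109 (TAM+ animal 9), 7.64% at 108164246 (TAM+ animal 61) and 9.80% at 108306173 (TAM+ animal 29). TAM- animal 15, with 12.7% at 107974959, had no other called PB site in Syt1. Other called PB sites of Syt1 held up to 100% of the counts at their position. Over the 3 kinds together, 20 of 72 TAM+ animals (27.8%) and 10 of 47 TAM- animals (21.3%) had a called site in either gene. The TAM+ animals hit in either gene had 4 to 233 listed days with a median of 37 days (19 animals with days), within the range of all TAM+ animals.

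Both genes were among the most often hit of the table, which is part of how they were picked. Among listed genes, those hit in at least 1 animal made up 6.45% (IR), 19.6% (JX) and 8.55% (PB). Those hit in at least 3 animals made up 0.182% (IR), 1.31% (JX) and 0.269% (PB). Ranked by hit animals, Syt1 stood 4th (IR), 4th (JX) and 3rd (PB), and Pawr 5th, 8th and 7th.

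The insertions of Pawr were few and differed widely in share. The highest lay in intron 2 at position 107790454, in TAM+ animal 62. This site held 4.17% of the animal's IR counts and 9.12% of its JX counts, and a PB site 21 bp away, at 107790433, held 9.75% of its PB counts. It was the 5th highest IR, 3rd highest JX and 2nd highest PB site of that tumour. The same position was listed at 1992 IR counts in TAM- animal 26, against 159870 in TAM+ animal 62, which held 98.7% of all IR counts there.

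Intron 2 held 4 of the 9 called IR sites of Pawr. Besides TAM+ animal 62 these were in TAM+ animal 68 (107776943, 1.22% of IR counts), TAM+ animal 1 (107797461, 0.0825%) and TAM- animal 16 (107781388, 1.10%). The last of these was the only called IR site of Pawr without tamoxifen, and it also held 0.968% of the JX counts of that animal. A single site lay in intron 3, at 107827351 in TAM+ animal 46, with 238 counts or 0.0804%. That animal held 34% of the IR counts at the position, and TAM+ animal 41, with donor 7, had 457 there without a call. TAM+ animal 46 had the fewest IR counts of all animals compared (295999) and 334 called IR sites, and this site ranked 264th in its tumour. All 5 sites inside the body were listed as disrupting the coding sequence.

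The other 4 IR sites of Pawr lay downstream of it, all in TAM+ animals. TAM+ animal 3 had 0.0545% of its IR counts at 107903408, a position spread over animals, with 49.5% of its counts in that tumour. TAM+ animals 18, 66 and 27 had 0.799% at 107925238, 2.69% at 107928995 and 1.0% at 107930023. These last 3 sites stood 73.8 to 78.6 kb past the last body position of Pawr and close to the 3′ end of Syt1. The site of TAM+ animal 66 ranked 3rd in its tumour, which had 3 called IR sites, and held 4.97% of the count of the highest. It was found after 4 listed days of tamoxifen, the lowest value listed for a TAM+ animal.

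Syt1 had 13 called IR sites in 10 animals, all of them in introns. The highest was at 107945190 in intron 9 in TAM+ animal 27, with 9.19% of the IR counts, 9.29% of the JX counts and, at 107945078, 12% of the PB counts of that tumour. Next came TAM- animal 21 with 8.21% of IR counts at 108198199 in intron 3. Its JX share there was 1.17%, and its nearest called PB site, at 108197946, held 0.668%. TAM- animal 42 had 5.0% of IR and 4.61% of JX counts at 107967816 in intron 9, with 2 PB counts within 100 bp. The 3 highest Syt1 sites thus came from 1 TAM+ and 2 TAM- tumours and ranked 5th or 6th in each.

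Lower shares made up the rest of the Syt1 sites in IR. TAM+ animal 68 had 1.59% in intron 6 at 108071285 and 0.594% in intron 8 at 108032382. TAM- animal 20 had 1.43% in intron 8 at 108028043, together with a PB site 20 bp away that held 1.88% of its PB counts. TAM- animal 30 had 0.419% in intron 3, and TAM+ animals 46 and 18 had 0.278% in intron 2 and 0.261% in intron 8. TAM+ animals 3 and 6 had 2 sites each, between 0.0640% and 0.111%. Over all called Syt1 sites in IR, the median share was 0.261% in TAM+ (9 sites, 0.0640% to 9.19%) and 3.22% in TAM- (4 sites, 0.419% to 8.21%). The same order was seen over all called IR sites of the table, with medians of 0.409% in TAM+ (1540 sites) and 1.43% in TAM- (771 sites). Of the 1540 sites, 334 and 130 were from TAM+ animals 46 and 3. The ranges of Syt1 overlapped between arms.

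**Figure D2:**
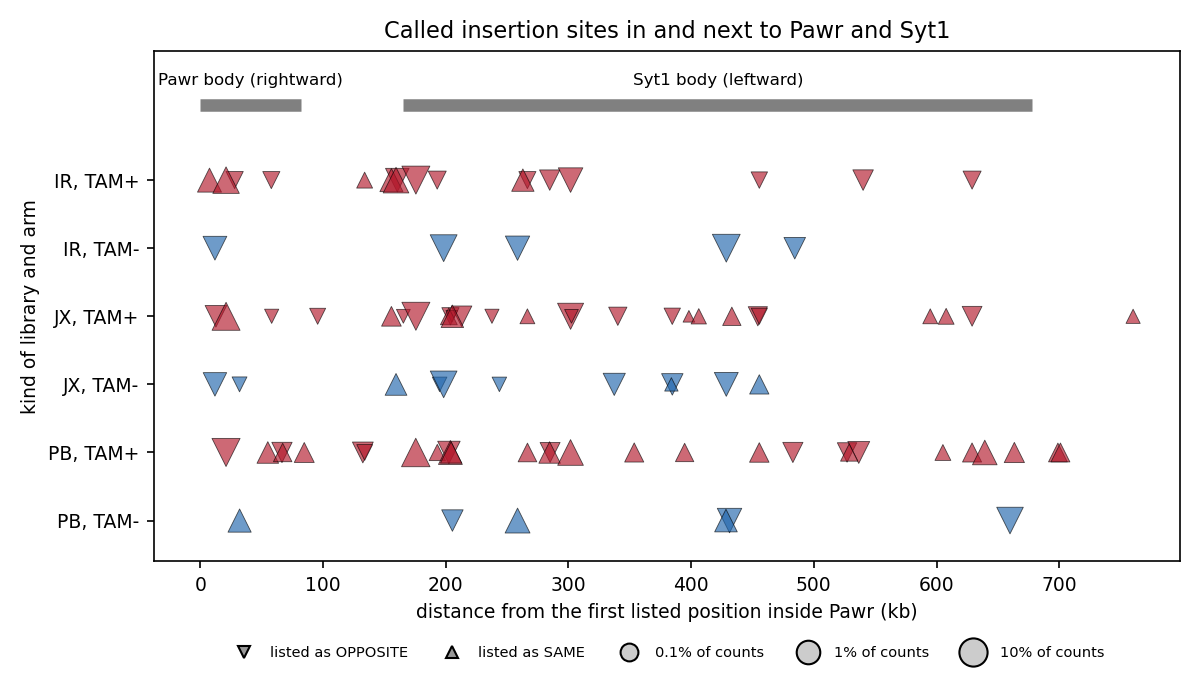
Called sites of Pawr and Syt1 by kind of library and arm (rows), against the distance in kb from the first listed position inside Pawr; grey bars are the gene bodies. Triangles point down for sites listed as OPPOSITE to the gene and up for SAME, and their area grows with the logarithm of the share of the animal's counts. In the IR rows 12 of the 13 Syt1 triangles point down.

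Sites of Syt1 in IR were denser in the 3′ part of the gene. Introns 4 to 10, whose sites the table lists as disrupting the coding sequence, held 8 sites over 187 kb, or 4.29 sites per 100 kb. Introns 1 to 3, listed as not disrupting it, held 5 sites over 316 kb, or 1.58 per 100 kb. The corresponding JX densities were 8.04 and 4.11 per 100 kb, and the PB densities 6.43 and 4.11 per 100 kb. These densities were not tested. The 3′ part of Syt1 is also the part nearer to Pawr. The listed effect and the position along the chromosome therefore cannot be told apart here. TAM+ animal 3 alone held 12 of the 30 called JX sites of Syt1.

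The called IR sites of Syt1 lay mostly in 1 orientation. The table listed 12 of 13 as OPPOSITE to the gene by most of their counts (92.3%), 8 of 9 in TAM+ and 4 of 4 in TAM-. Counted by animal, 9 of 10 had only OPPOSITE sites, and TAM+ animal 68 had 1 site of each orientation. Its SAME site at 108032382 held 0.594% of IR counts. For Pawr, 4 of 9 sites were OPPOSITE and 5 SAME, with 3 of 8 OPPOSITE in TAM+ and 1 of 1 in TAM-.

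Beside this, 49.8% of 1148 called IR sites inside gene bodies of the whole table were listed as OPPOSITE, and 50% of the 222 on chromosome 10. The 7 other genes with called IR sites within 1 Mb had 51 of 103 sites OPPOSITE (49.5%), and Ppp1r12a (38 sites) and Otogl (36 sites) held most of the 103. Gene by gene the share varied, with 17 of 36 in Otogl (47.2%), 16 of 38 in Ppp1r12a (42.1%), 8 of 11 in Ptprq (72.7%), 6 of 11 in Nav3 (54.5%) and 4 of 5 in Lin7a (80%). Ptprq, on the minus strand as Syt1 is, thus also had more OPPOSITE than SAME sites, and whether Syt1 differs from it was not tested. Since Syt1 is on the minus strand, OPPOSITE corresponds to the plus strand, where 12 of its 13 sites and 54 of the 103 sites of those neighbours lay. The orientation of Syt1 was named in how the genes were picked, so no test is given for it.

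**Figure D3:**
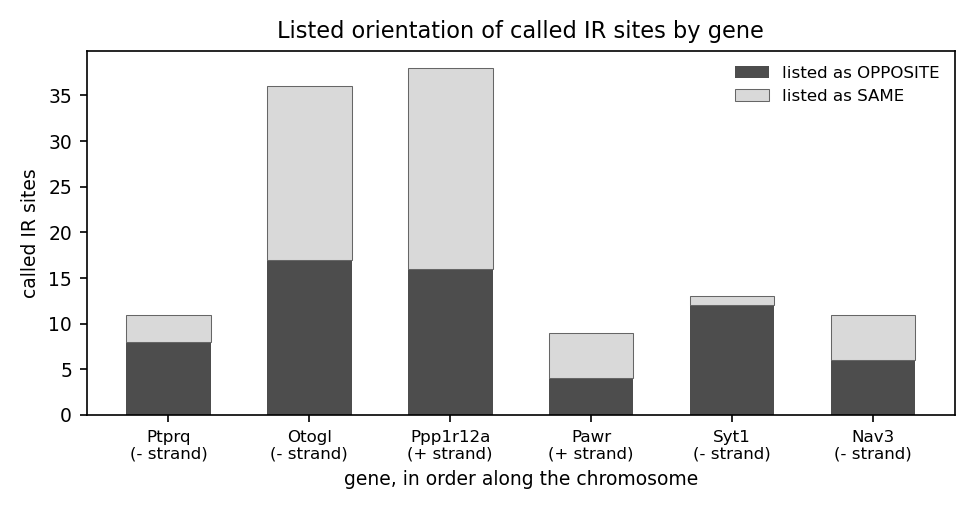
Number of called IR sites listed as OPPOSITE (dark) and SAME (light) to the gene, for genes with at least 9 called IR sites in the region, in their order along the chromosome. Syt1 had 12 OPPOSITE sites and 1 SAME site, Ptprq had 8 of 11 OPPOSITE (72.7%) and Nav3 6 of 11 (54.5%), and Pawr, Ppp1r12a and Otogl had between 42.1% and 47.2%.

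The skew depended on the share a site had to reach. With sites called from 0.1% of the highest site, a lower call tried because it reaches many more insertions, Syt1 had 204 IR sites in 28 TAM+ and 12 TAM- animals. Of these, 120 were OPPOSITE and 84 SAME (58.8% OPPOSITE). In 23 of these 40 animals OPPOSITE sites outnumbered SAME ones, in 11 the reverse held and 6 were tied, and 45 of the 204 sites were from TAM+ animal 3. With a call at 5%, 5 of 5 Syt1 sites in 5 animals were OPPOSITE. At the same calls Pawr was at 52.9% of 102 sites and at 1 of 4 sites.

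The other kinds of library gave a weaker picture. In JX, 19 of 30 Syt1 sites were OPPOSITE, and 13 of 18 without TAM+ animal 3. Over all genes, sites with at least 10 counts at each end were compared between ends. The left and right ends carried the same label at 5.71% of 2399 such sites in JX and 10.3% of 107 in PB. A label by most counts in these kinds therefore depends on which end had more counts. The left end had more at 28 of the 30 Syt1 JX sites. The 5 JX sites within 1000 bp of a called IR site of the same animal were all OPPOSITE, and the remaining 25 were divided into 14 OPPOSITE and 11 SAME. In PB the labels ran the other way, with 19 of 27 Syt1 sites listed as SAME. Over all genes, called IR and PB sites within 1000 bp in the same animal carried opposite labels in 97.7% of 1087 pairs, and in 10 of 10 pairs in Pawr and Syt1. A SAME label in PB therefore goes with an OPPOSITE label in IR at the same insertion. The 19 Syt1 PB sites with no called IR site nearby had 8 OPPOSITE and 11 SAME labels.

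The labels of the SB ends also depend on how they are counted. With left-end libraries only, 12 of 18 Syt1 sites (66.7%) and 9 of 12 Pawr sites (75%) were OPPOSITE. With right-end libraries only, 19 of 21 Syt1 sites (90.5%) and 5 of 9 Pawr sites (55.6%) were. Inside the gene body, 3 of 5 Pawr sites (60%) were OPPOSITE. At IR sites where the smaller of the left and right end had at least 10% of the counts of the larger, both ends carried the same label in 98.2% of 331 sites. Where the smaller end had at most 0.1%, they did so in 12.3% of 300 sites. At 11 of the 13 Syt1 sites the label of most counts held over 99% of them. The exceptions were TAM+ animal 6 at 107962574 (91.7%) and TAM- animal 42 at 107967816 (73.8%).

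The 3 kinds of library were compared at the same insertions. Of the 22 called IR sites of both genes, 17 lay within 100 bp of a JX count of that animal, 12 of 17 in TAM+ and 5 of 5 in TAM-. Over the whole table this share was 74.5% in TAM+ and 97.9% in TAM-. The 5 IR sites without a JX count were those of TAM+ animal 46 (2 sites), TAM+ animal 3 (2 sites) and TAM+ animal 6 (1 site), all at 0.278% of the IR counts or less. Of the 35 called PB sites, 8 had neither an IR nor a JX count within 100 bp, 6 of 29 in TAM+ and 2 of 6 in TAM-. Over all genes the share of PB sites away from both was 42.7% in TAM+ and 33.0% in TAM-.

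Those 8 PB sites came from both arms and both genes. For TAM+ animal 27 (12% of PB counts) and TAM- animal 21 (0.668%), the nearest called IR site lay 112 bp and 253 bp away, beyond the 100 bp used. TAM- animal 32 had 1.52% of its PB counts in intron 3 of Syt1, at 108200853, with 0 IR and 0 JX counts nearby. TAM+ animal 43 had 0.225% at 108054580 in intron 8. Others were TAM+ animal 59 next to Pawr (0.220%) and 3 sites of TAM+ animals 9 and 41, whose PB libraries were shallow, at 15 to 45 counts per site.

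Across animals, 2 had Pawr called in all 3 kinds of library (TAM+ animals 62 and 3) and 5 had Syt1 (TAM+ animals 27, 3 and 6 and TAM- animals 20 and 21). Pawr was hit in some kind in 16 animals, 5 in IR alone, 2 in JX alone and 3 in PB alone. Syt1 was hit in 25 animals, 2 in IR alone, 6 in JX alone and 8 in PB alone. A hit in one kind was therefore often not called in another.

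Some positions carried different shares of the kinds in different animals. At 108071285 in Syt1, TAM+ animal 68 had 47908 IR counts and 171 JX counts, while TAM+ animal 24, sequenced in the same lane, had 36448 JX counts and 13 IR counts. At 107928995 next to Pawr, TAM+ animal 66 had 84194 IR and 1572 JX counts, and TAM- animal 3, an animal with donor 7 in the same lane, had 990 JX counts. The JX site was called in TAM- animal 3 alone, which held 38.1% of the JX counts at that position, since a call depends on the animal's own highest site. These JX sites are counted with the animals as deposited, and whether counts passed between libraries was not tested.

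**Figure D4:**
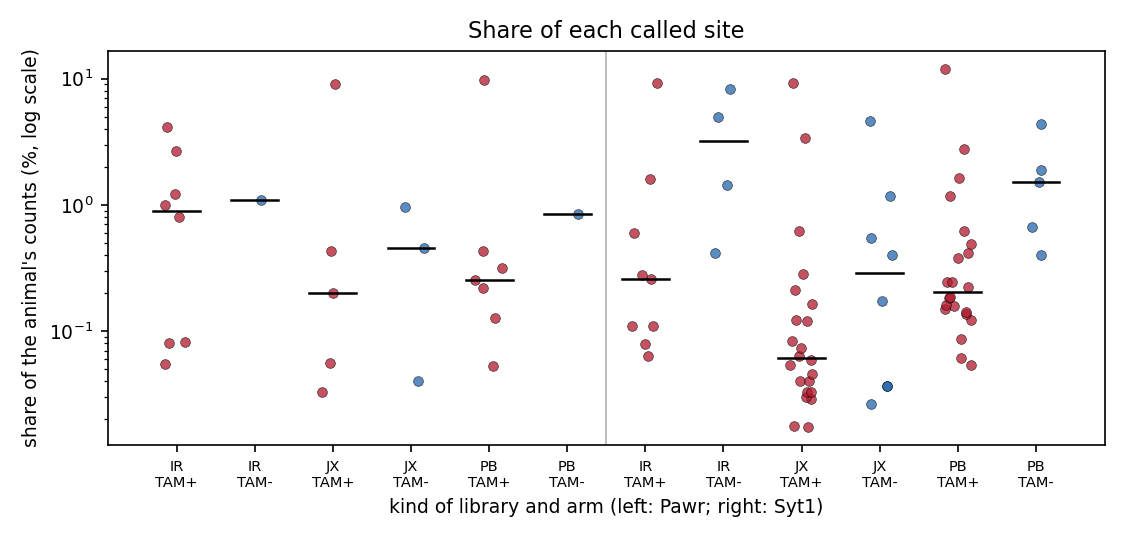
Share of the animal's counts at each called site (log scale, %), for Pawr (left) and Syt1 (right) by kind of library and arm; points are sites and lines medians. Most sites held under 1% of the counts, and the highest reached 9.19% in IR, 9.29% in JX and 12% in PB, all 3 in Syt1 in TAM+ animal 27.

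The sites were not evenly spread over animals. TAM+ animal 3 held 22 of the 95 called sites of both genes (3 IR, 13 JX and 6 PB sites), and the next animal held 6. That tumour also had 130 called IR, 689 called JX and 187 called PB sites in the whole genome. Its sites in Pawr and Syt1 held between 0.0174% and 0.284% of its counts. Without it, the animals hit in JX were 4 TAM+ and 3 TAM- for Pawr and 7 TAM+ and 5 TAM- for Syt1.

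Both genes were hit in the same animal in IR in TAM+ animals 3, 18, 27, 46 and 68, 5 of the 14 animals with either, and in no TAM- animal. Only 1 TAM- animal was hit in Pawr in IR, so at most 1 could have been hit in both. TAM+ animals 3 and 46 had 130 and 334 called IR sites in the whole genome. In JX both were hit in 3 animals and in PB in 5. By the Jaccard index, the shared animals over the animals with either gene, Syt1 was the gene most like Pawr in IR among 39 genes (0.357). The next for Pawr were 1700010J16Rik (0.30), Pcdh15 (0.273), Ptprq (0.231) and Ppp1r12a (0.207). For Syt1 they were Plxnc1 (0.30), Ppp1r12a (0.241), Ptprq (0.214) and Atp2b1 (0.182). All of these genes lie on chromosome 10, and the points compared share the animals and their donor.

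The donor chromosome was compared next. All called IR sites of both genes were in animals with donor 10. At 107827351 in Pawr, however, TAM+ animal 41, with donor 7, had more IR counts (457) than TAM+ animal 46 (238), where the site was called. Pawr was hit in 9 of 90 animals with donor 10 (10%, exact 95% interval 4.68% to 18.1%) and 0 of 29 with donor 7 (0% to 11.9%), with Fisher's exact p = 0.111 and adjusted p = 0.452. Syt1 was hit in 10 of 90 with donor 10 (11.1%, 5.46% to 19.5%) and 0 of 29 with donor 7 (Fisher's exact p = 0.116, adjusted p = 0.452). In IR 12.5% of the 40 genes passed this comparison, and neither Pawr nor Syt1 was among them.

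With the lower call at 0.1% of the highest site, Syt1 was hit in IR in 38 of 90 animals with donor 10 and 2 of 29 with donor 7, an excess of 35.3 percentage points with an adjusted p of 0.0345 by Fisher's exact test. This call was the only one of the alternatives in which either gene passed. At it 11 genes passed between donors in IR, Syt1 among them, against 5 of 40 at the call used above. Between arms at this call, Syt1 was hit in 28 TAM+ and 12 TAM- animals, with an adjusted p of 0.655 by the same exact test. Both genes were picked by their hits in these same tumours. Their p-values by arm and donor are therefore descriptions and no independent support.

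In JX, Pawr was hit in 6 animals with donor 10 and 2 with donor 7, and Syt1 in 12 and 1 (Fisher's exact p = 0.183, adjusted p = 1), where 0% of genes passed by donor and 11 had an unadjusted p under 0.05. In PB, Pawr was hit in 5 with donor 10 and 2 with donor 7, and Syt1 in 14 and 2 (Fisher's exact p = 0.351, adjusted p = 0.883), where 7.27% passed. The donor-7 animals hit in PB were TAM+ animals 9 and 41, with 15 to 65 counts per site. The share of IR counts listed for Syt1 had a median of 0.105% in donor-10 animals and 0.00144% in donor-7 animals, and for Pawr of 0.0537% and 0.000282%. Within donor 10 alone, the medians for Pawr were 0.0862% in TAM+ and 0.0181% in TAM- animals, and for Syt1 0.127% and 0.0568%.

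Pawr and Syt1 lay within a longer stretch of insertions. Within 1 Mb on either side, 137 called IR sites were found in 36 TAM+ and 22 TAM- animals. Ppp1r12a, a subunit of myosin phosphatase, had 38 sites and Otogl, an otogelin-like gene, 36, both proximal to Pawr. Ptprq, a receptor-type phosphatase, had 11, Nav3, a neuron navigator gene distal to Syt1, 11, Lin7a 5, and Myf5 and Myf6 had 1 each. Per 100 kb of body, the densities were 6.11 in Pawr and 2.53 in Syt1, against 18.3 in Otogl, 15.7 in Ppp1r12a, 4.45 in Ptprq and 2.84 in Nav3.

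In bins of 100 kb and in animals with donor 10, called IR sites were most frequent 200 to 100 kb before Pawr in TAM+ animals (12 of 53, 22.6%) and 500 to 400 kb before it in TAM- animals (8 of 37, 21.6%). The bin that starts at the first position of Pawr was hit in 4 TAM+ (7.55%) and 1 TAM- (2.70%) animals. The next bin, which holds the downstream positions and the 3′ end of Syt1, was hit in 5 TAM+ (9.43%) and 1 TAM- (2.70%). From 300 kb on, through the rest of Syt1, each bin was hit in at most 1 TAM+ and 2 TAM- animals.

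**Figure D5:**
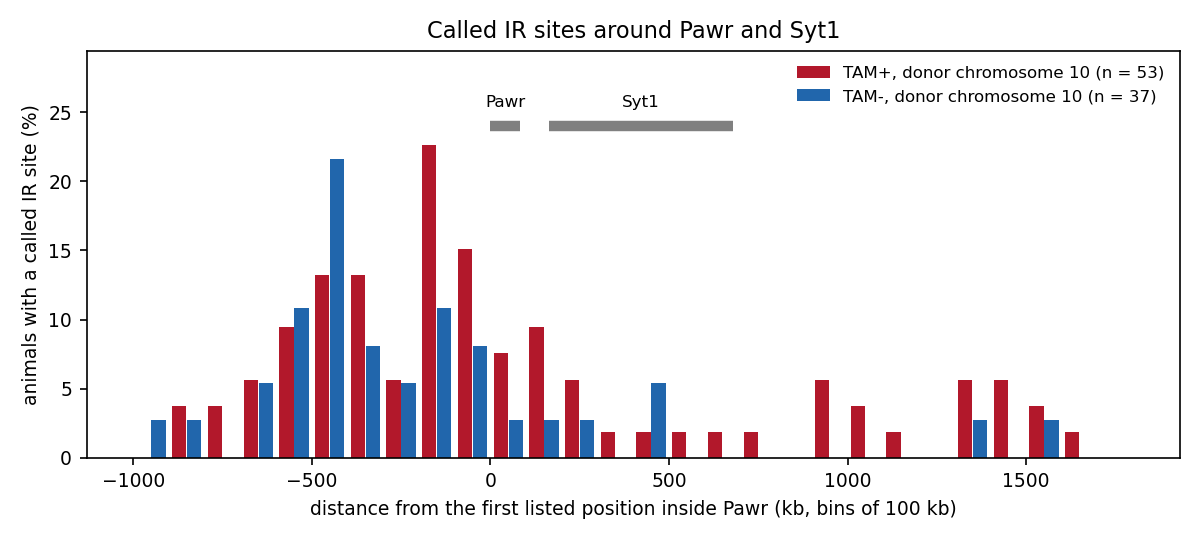
Percent of donor-10 animals with a called IR site in each bin of 100 kb, for TAM+ (red, n = 53) and TAM- (blue, n = 37), against the distance in kb from the first listed position inside Pawr; grey bars are the gene bodies. The highest TAM+ bar, before Pawr, stands at 22.6%, and across Pawr and Syt1 no TAM+ bar exceeds 9.43%.

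Genes related to both were looked up by name. Of 17 synaptotagmins, calcium-binding or related vesicle proteins, IR libraries had 3 hit (17.6%), JX libraries 8 (47.1%) and PB libraries 3 (17.6%), against 6.35%, 16.4% and 7.83% of all 22353 symbols. These shares include Syt1, which was chosen for its hits. The other members had 2 of 16 hit in IR (12.5%), 7 of 16 in JX (43.8%) and 2 of 16 in PB (12.5%). In JX all called sites of Syt4, Syt6, Syt9 and Syt14 stood at positions spread over animals. Over the whole genome 3115 of 6778 called JX sites did so, against 21 of 2311 in IR. Of the genes listed in JX, 19.6% were hit, and the shares of the list were not tested against those of all genes. Apart from Syt1, Syt9 in IR was hit in 1 TAM+ and 1 TAM- animal and Syt15 in 1 TAM- animal. Syt10, hit in JX in 2 TAM+ and 1 TAM- animals with 0.103% of counts at most, was the only other one hit in 3 animals. Of 20 genes of synaptic vesicle fusion, the IR, JX and PB libraries had 3, 6 and 2 hit, each in 1 or 2 animals. Of 24 partners of Pawr and genes of apoptosis, 1 was hit in IR (Prkcz, an atypical protein kinase C, in 1 TAM+ animal at 0.0518%), 6 in JX and 1 in PB. The median number of hit animals was 0 in each list, as over all genes. Among the list members only Syt1, and Syt10 in JX, were hit in at least 3 animals and so tested between arms. Neither passed, and no member of the other lists was tested.

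Control libraries were described apart. The 5 control tumours had no called site in either gene in any kind, and listed at most 0.0620% of IR counts in them. Of these 5, 3 were listed with donor 7 and 2 with no donor. All called IR sites of both genes in the compared tumours lay in animals with donor 10. Control DNA had called JX sites in Syt1 in 2 of 7 libraries, both at 108247295 with 10 and 18 counts, which is 0.00842% and 0.0143% of the counts. That position was called in none of the tumours compared.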

How the data were processed

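The deposited table gives raw counts per insertion position and library, whole numbers of at least 1 that the authors did not scale, with mm9 as the build per the submitters' processing notes. Not given in the sources used here were the aligner, the counting rule and the annotation. No gene was listed for 19.7% of lines. Arm, donor and days came from the authors' sheet. The animal was the replicate, with 7 animals in 2 lanes summed over them, and 1 animal, listed under 2 spellings of its ID, was joined (TAM+ animal 61, no days used).

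Sites were called as described above. Genes hit in at least 3 animals were compared with two-sided Fisher's exact tests and Benjamini-Hochberg adjustment over all such genes of a kind of library, after a check on simulated data (Python 3.11.15, scipy 1.17.1, pandas 2.3.3). Orientation is that of most counts of a site. A position is called spread where no animal held over 50% of its counts and at least 3 animals listed it. Separate animals are separate tumours, and the Fisher's exact p-values refer to the division of hit animals between groups. A site called in several animals counted for 1 of them, so calls were not fully independent between animals.

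Named genes were both members, every gene with a called IR site within 1 Mb, the 5 most alike by Jaccard index, and up to 4 members of each list hit in at least 3 animals. Other list members are named as having been chosen after their values were seen. Members, lists and tests were chosen with earlier results of these data known. Alternatives covered the site call, merging, crediting, spread positions, gene bodies, ends, donor and lanes. The removal of TAM+ animal 3 and the alternatives for orientation were chosen after seeing the data. No sequence is printed, since no mm9 genome was used here.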

Additional observations from a re-analysis of the deposited data

Results flagged for a closer look

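In 5 of 12 groups of 4 to 10 samples, 1 sample stood apart from the rest in the share of counts listed for both genes. These shares are skewed, from 0.000224% to 0.915% of IR counts in animals of no given arm. The groups also share animals over the kinds of library, so no rate given by chance can be set beside this count. Among animals of no given arm, animal 8 had 0.915% of its IR counts in Pawr and Syt1 (next 0.261%, 8 animals) and 1.61% of its PB counts (next 0.0799%). Among control DNAs, number 6 had 1.82% of its IR counts there (next 0.0199%, 7 libraries), but this is 1 count of 55 in a nearly empty library. Number 4 had 0.430% of its PB counts (next 0.00228%, 5 libraries), which is 3 counts of 698. Among TAM- animals with donor 7, animal 3 had 0.461% of its JX counts (next 0.0873%, 10 animals), and this is the called JX site at 107928995 next to Pawr.

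Called sites also appeared in animals of no given arm, which entered no comparison, above the control tumours, which had none. In JX, animal 7 had 0.111% of its counts in intron 3 of Syt1 at 108131002, and animal 8 had 0.0489% in intron 2 at 108273210. In PB, animal 8 had 0.696% in intron 9 of Syt1 at 107965750 and 0.368% in intron 2 at 108273274, 64 bp from its JX site. Animal 5 had 0.0733% of its PB counts in Pawr at 107790433, from 13 counts, at the position called in TAM+ animal 62.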

How the results depend on the processing

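Of 21 alternatives, none made Pawr or Syt1 pass between arms, and 1 made Syt1 pass between donors (given above). Adjusted p over the alternatives ran from 0.437 to 1 for Pawr between arms in IR and from 0.606 to 1 for Syt1. Differences below are percentage points of animals, TAM+ minus TAM- or donor 10 minus donor 7. Most reversals concern differences near 0.

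Between arms, the Syt1 difference in IR, -0.18 in the reported setting, was 13.4 with a site call at 0.1%, 8.24 with left ends only, 1.21 with right ends only and 0.51 with donor 10 only. In JX the Syt1 difference, 0.47 as reported, was -0.92 with a call at 100 counts and without spread positions. It was -11.6 with right ends only, -0.31 with donor 10 only and -0.78 without TAM+ animal 3. The Syt1 difference in PB, 4.64 as reported, was -1.48 with a call at 5% and -3.69 with right ends only. The Pawr difference in JX, 0.56 as reported, was 9.37 with a call at 0.1% and 10.4 with right ends only, and -1.48 with a call at 5%, -0.089 in gene bodies only, -1.57 with every calling animal counted and -0.75 without TAM+ animal 3.

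Between donors, the Syt1 difference in IR was 35.3 with a call at 0.1%. The Pawr difference in JX, -0.23 as reported, was 16.3 with a call at 0.1%, 2.11 at 100 counts and 0.996 in gene bodies. It was 0.881 with every calling animal counted and 11.1 with right ends only. The Pawr difference in PB, -1.34 as reported, was 27.5 at 0.1%, 1.11 at 5% and 4.44 at 100 counts. It was 0.881 with left ends only and 6.67 with right ends only.

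Genes passing between donors, 5 in IR, 0 in JX and 4 in PB as reported, were 11, 9 and 7 with a call at 0.1%. In IR they were 2 at 5%, 2 in gene bodies and 0 with left ends only. In JX they were 2 at 100 counts, 4 without spread positions, 1 with every calling animal counted and 1 with right ends only. In PB they were 1 at 5%, 0 in gene bodies, 1 without spread positions, 0 with left ends only and 2 with right ends only.

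Leaving out each lane in turn gave arm differences of 6.18 to 12.7 for Pawr and -2.06 to 3.68 for Syt1 in IR, -0.89 to 2.94 and -3.44 to 6.36 in JX, and 3.87 to 8.82 and 1.54 to 9.69 in PB. Donor differences were 8.43 to 11.5 and 9.21 to 12.8 in IR, -2.31 to 3.95 and 7.88 to 11.7 in JX, and -4.72 to 6.17 and 6.59 to 16.0 in PB. Genes passing between donors ranged from 3 to 5, 0 to 2 and 0 to 4 over the 3 kinds. The OPPOSITE share of Syt1 sites in IR was 90.0% to 100% without 1 lane, 58.8% with a call at 0.1%, 100% at 5% and 66.7% with left ends only. That of Pawr was 37.5% to 57.1% without 1 lane, 75% with left ends only, 60% in gene bodies and 25% at 5%. The cause of these changes was not tested. No paired analysis was possible because replicate numbers here name lanes that each hold both arms and do not pair animals. Few hit animals and shallow PB libraries limit all comparisons.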
